A study of Homo sapiens with 6 samples.

Results

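DPPA2, DPPA4, L1TD1, SOX2, KLF4, LIN28A, LIN28B, NANOG, MYC and MYCN are factors of pluripotent stem cells, and their RNA was compared between H661 cells with and without knockdown of SALL4. The genes were taken from a list of 10 symbols, and each was read from the probe sets whose platform annotation gives that symbol and no other. Of the 10, 9 had such a probe set, out of 18404 genes measured on the arrays in all. The exception was NANOG, whose 2 probe sets also carry the symbol of another gene, so no level of NANOG is given. POU5F1, which encodes OCT4, is not on the list and was in the same position, with 1 probe set that carries several symbols. The members were chosen by their normalized intensities in SALL4-sh against Scr-sh, the contrast described here, so their values are a description, and no call of theirs in the fit over all genes is read as a test.

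H661 is an established human cell line from a large cell carcinoma of the lung. The cells carried a lentiviral short hairpin RNA, either a scrambled control sequence (Scr-sh, 3 arrays) or one against SALL4 (SALL4-sh, 3 arrays), and 1 Affymetrix expression array was run on the total RNA of every sample. Both groups are the same line with the same kind of vector, and no sample without a hairpin was analysed here, so an effect shared by both hairpins is not visible. The methods give 1 hairpin sequence for SALL4, and effects of that hairpin on other transcripts cannot be told apart from those of SALL4. Whether the 3 samples within a group were grown as separate cultures is not stated for these arrays, although the methods speak in general terms of independent experiments, and p-values therefore cover no more than the spread among these samples, possibly a technical one. The deposited values are normalized intensities on a linear scale in which everything under 8 stands at exactly 8, and this value is called the floor below. A difference against a group at the floor is a lower limit in size. In RNA from a whole culture, fewer cells with a transcript and less of it per cell cannot be told apart.

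Pluripotency rests on a small set of transcription factors, among them OCT4, SOX2 and NANOG, that bind each other's genes and keep differentiation genes silent. SALL4 is a zinc finger protein of the same network and is made again in some tumors. KLF4 and MYC join OCT4 and SOX2 in the classic mix that turns body cells into stem cells, and LIN28 and NANOG were used in a related one. The LIN28 proteins bind precursors of the let-7 microRNAs and block their maturation, and let-7 in turn silences growth genes that include MYC family members and LIN28 itself. DPPA2 and DPPA4 bind chromatin together in early embryos, and L1TD1 is an RNA-binding protein of stem cells that derives from an ancient LINE-1 element.

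The hairpin's target was lower on every SALL4-sh array. SALL4 stood at 126, 104 and 130 in Scr-sh and at 33.6, 31.9 and 26.5 in SALL4-sh, or 120 ± 13.8 against 30.7 ± 3.72 (SD, n = 3 each), a log2 difference of -1.97 (standard error 0.14). Its adjusted p was 0.0159 from limma, and the exact two-sided permutation test gave p = 0.1, the smallest p that 3 arrays against 3 allow. With 1 array left out in turn, the adjusted p ran from 0.0309 to 0.0741, and it stayed under 0.05 without Scr-sh replicate 2 alone. The other SALL genes did not pass the threshold of an adjusted p of 0.05, with log2 differences of 0.08 for SALL1, 0.28 for SALL2 and 0.03 for SALL3 (adjusted p from limma of 0.818 for SALL2 and 1 for both others). Of the epithelial markers, EPCAM stood at 746 ± 154 in Scr-sh and KRT18 at 56.1 ± 18.3, while KRT8 (9.01), KRT19 (13.0), CDH1 (9.07), NKX2-1 (12.4) and SFTPC (10.2) lay near the floor, and VIM, a mesenchymal filament, stood at 1340 ± 255. Of 14 markers of leukocytes, endothelium and fibroblasts, 8 read 8 on every array, PTPRC, PECAM1, VWF and DCN among them. Summed over those 14, the intensity was 389 to 453 in Scr-sh and 291 to 335 in SALL4-sh, with COL1A1 lower (log2 difference -0.48, adjusted p = 0.0387 from limma) and COL1A2 at 250 ± 35.2 and 145 ± 27.5 (adjusted p = 0.132, and 0.0486 with the genes at the floor left out). Over the 7 measured epithelial markers the sum was 686 to 1030 in Scr-sh and 939 to 1210 in SALL4-sh. Most of that sum was EPCAM, at 590 to 898 and 843 to 1110, with overlapping groups (adjusted p = 0.41 from limma). The log2 differences were -0.44 for KRT18 and -0.11 for KRT19, and 0.07 for KRT8, 0.19 for NKX2-1 and 0.24 for SFTPC. CDH1 was higher by 0.91 on the log2 scale (adjusted p = 0.0456 from limma) from values at or near the floor. VIM alone stood at 1120 to 1620 in Scr-sh and 940 to 1140 in SALL4-sh. A per-gene test without moderation, called the plain test here, called 0 genes of either list. The part of these marker differences in the results below was not tested.

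The sequences just before the start sites of 5 of the genes are shown first, because 3 of these genes (DPPA4, SOX2 and KLF4) had lower and the others (L1TD1 and DPPA2) higher values on all SALL4-sh arrays. Each is the stretch of 250 bases before the annotated start, written 5′ to 3′ along the gene's strand, from RefSeq on GRCh38.p14. Promoters were listed for 8 of the 10 genes. Capitals mark matches to 4 words searched on both strands: ATATT, an AT-rich word of the kind that SALL4 zinc fingers bind, ATGCAAA, the core of the octamer that OCT proteins read, CACGTG, the E-box of MYC with MAX, and GGGCGG, the GC box of SP and KLF proteins. No match overlaps a match to another word in the stretches shown. The stretches lie at chr3:109337547-109337796 (minus strand) for DPPA4, chr3:109316518-109316767 (minus) for DPPA2, chr1:62194599-62194848 (plus) for L1TD1, chr3:181711675-181711924 (plus) for SOX2 and chr9:107489770-107490019 (minus) for KLF4.
DPPA4: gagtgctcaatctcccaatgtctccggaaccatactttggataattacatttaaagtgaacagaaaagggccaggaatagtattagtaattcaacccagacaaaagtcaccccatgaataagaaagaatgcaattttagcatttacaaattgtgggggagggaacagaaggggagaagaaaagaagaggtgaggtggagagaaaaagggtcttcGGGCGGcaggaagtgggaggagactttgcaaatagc
DPPA2: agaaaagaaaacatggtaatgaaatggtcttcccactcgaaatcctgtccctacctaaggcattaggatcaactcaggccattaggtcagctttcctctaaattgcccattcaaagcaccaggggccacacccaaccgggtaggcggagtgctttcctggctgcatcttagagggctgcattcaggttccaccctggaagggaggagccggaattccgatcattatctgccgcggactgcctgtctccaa
L1TD1: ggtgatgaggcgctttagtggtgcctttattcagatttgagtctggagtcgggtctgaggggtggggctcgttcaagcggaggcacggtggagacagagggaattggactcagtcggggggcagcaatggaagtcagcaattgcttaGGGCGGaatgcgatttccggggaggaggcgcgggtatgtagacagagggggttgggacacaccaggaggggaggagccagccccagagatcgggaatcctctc
SOX2: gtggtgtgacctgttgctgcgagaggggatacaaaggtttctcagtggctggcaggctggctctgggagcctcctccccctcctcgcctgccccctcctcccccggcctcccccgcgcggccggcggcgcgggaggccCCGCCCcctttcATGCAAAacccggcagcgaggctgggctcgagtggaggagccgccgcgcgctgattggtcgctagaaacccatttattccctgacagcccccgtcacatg
KLF4: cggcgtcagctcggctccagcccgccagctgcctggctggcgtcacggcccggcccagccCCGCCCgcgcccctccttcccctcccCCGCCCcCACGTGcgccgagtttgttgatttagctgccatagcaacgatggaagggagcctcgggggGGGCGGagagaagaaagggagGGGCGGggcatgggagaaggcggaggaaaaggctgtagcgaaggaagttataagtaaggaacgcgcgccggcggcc

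These stretches differed in base composition. G and C made up 43.2% of the DPPA4 stretch and 52.0% of that of DPPA2, against 59.6% for L1TD1, 68.8% for SOX2 and 69.2% for KLF4, where the median over 35116 promoters of RefSeq was 58.0%. The word ATATT was in none of the 5, and among the other listed promoters it was in those of MYCN and NANOG; 21.4% of all promoters hold it. A single octamer core lay in the SOX2 stretch and another in that of NANOG, against 3.94% of all promoters. An E-box lay in the KLF4 stretch and in 1 of the 2 listed for LIN28B, against 6.34% of all. The GC box was the common one, held by 42.6% of all promoters and by those of DPPA4, L1TD1, SOX2, KLF4, LIN28B and MYCN, with 4 matches in KLF4 and 0 in DPPA2. A match is a run of letters in this window only.

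DPPA4 and DPPA2 are adjacent genes on chromosome 3 with no other coding gene between them, and their values differed in opposite directions. DPPA4 stood at 235, 213 and 202 on the Scr-sh arrays and at 104, 102 and 125 on the SALL4-sh arrays. The SALL4-sh values were all far below the lowest Scr-sh value, and the means were 217 ± 17.0 and 110 ± 12.8 (SD, n = 3 each), a log2 difference of -0.98 (standard error 0.11) or 0.507 of the Scr-sh level. DPPA2 stood at 95.6, 98.2 and 90.6 in Scr-sh and at 98.5, 101 and 128 in SALL4-sh. Its SALL4-sh values were all above its Scr-sh values, but the closest pair, 98.2 and 98.5, nearly met. The log2 difference of DPPA2 was 0.20 (standard error 0.12), from 94.8 ± 3.87 to 109 ± 16.6 (SD, n = 3 each), and 1 array, SALL4-sh replicate 3, carried most of it. Without that array it was 0.07. On the far side of DPPA4, NECTIN3, a cell adhesion protein, had a log2 difference of -0.16 (adjusted p = 0.918 from limma), and MORC1, the nearest measured gene beyond DPPA2, read 8 throughout.

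L1TD1 read near the floor in Scr-sh and above it in SALL4-sh. It stood at 8, 10.5 and 8 in Scr-sh, 2 of these at the floor, and at 33.3, 27.7 and 32.1 in SALL4-sh. No SALL4-sh value came near a Scr-sh value. The means were 8.85 ± 1.47 and 31.0 ± 2.95 (SD, n = 3 each), and the log2 difference of 1.82 (standard error 0.15) is a lower limit because of the floor. Its neighbours had log2 differences close to 0. PATJ, a scaffold of cell polarity, had a log2 difference of 0.15 (adjusted p = 0.77 from limma), and KANK4 stayed within 1 unit of the floor, at 8.20 ± 0.340 in Scr-sh and 8.16 ± 0.284 in SALL4-sh.

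SOX2, the partner of OCT4 on DNA, was modestly lower. Its intensity was 98.4, 95.1 and 114 in Scr-sh and 76.6, 80.0 and 74.2 in SALL4-sh. The groups did not overlap, with 102 ± 9.88 against 76.9 ± 2.90 (SD, n = 3 each), a log2 difference of -0.41 (standard error 0.08) or 0.754 of the Scr-sh level. KLF4, a zinc finger factor of stem cells and of epithelia, read at the floor or close to it in SALL4-sh. It stood at 14.1, 25.3 and 16.1 in Scr-sh and at 8, 8 and 9.26 in SALL4-sh. The groups did not overlap, but the Scr-sh arrays differed widely among themselves (18.5 ± 5.98, SD, n = 3). With SALL4-sh at 8.42 ± 0.729 (SD, n = 3), the log2 difference of -1.09 (standard error 0.25) is a lower limit in size, and it was -0.84 without Scr-sh replicate 2.

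**Figure D1:**
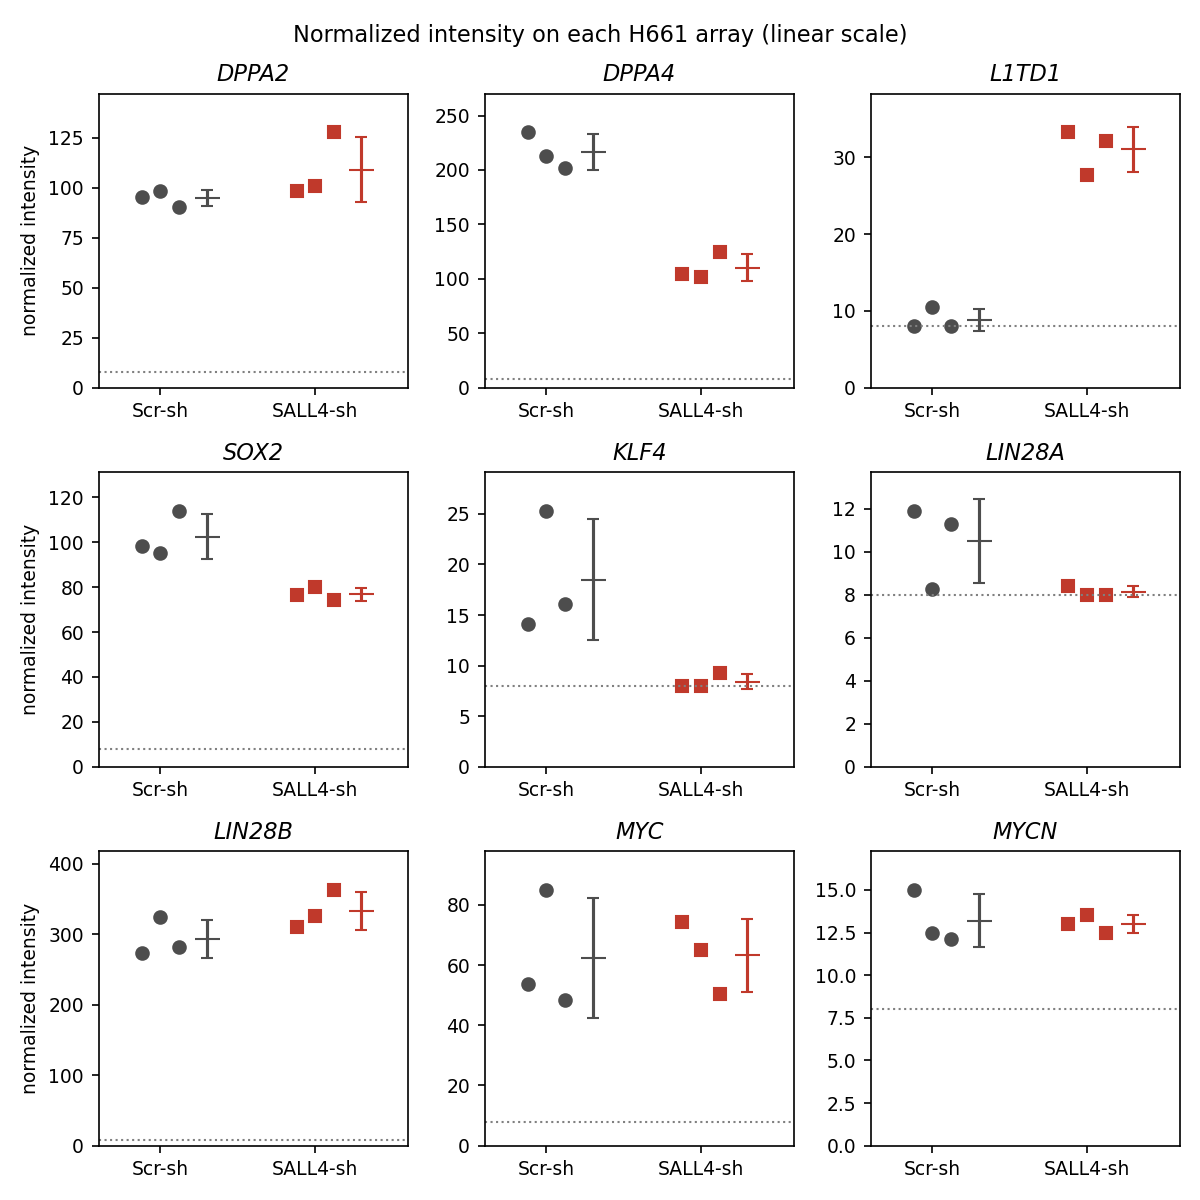
Normalized intensity (linear scale, vertical axis from 0, a separate scale for each gene) of the 9 measured genes on each of the 3 Scr-sh arrays (dark circles) and 3 SALL4-sh arrays (red squares); bars are the mean and SD, and a dotted line marks the floor (8). DPPA4, SOX2 and KLF4 lie lower and L1TD1 and DPPA2 higher on all SALL4-sh arrays, while LIN28A, LIN28B, MYC and MYCN overlap between the groups.

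The LIN28 genes did not separate the groups. LIN28B stood at 274, 324 and 282 in Scr-sh and at 310, 326 and 363 in SALL4-sh, so that the highest Scr-sh array lay within the SALL4-sh range. Its means were 293 ± 27.0 and 333 ± 27.0 (SD, n = 3 each), and the log2 difference was 0.18 (standard error 0.10). LIN28A was at the edge of detection. It stood at 11.9, 8.27 and 11.3 in Scr-sh and at 8.42, 8 and 8 in SALL4-sh, a log2 difference of -0.35 (standard error 0.16) that is a lower limit in size. The 2 groups overlapped through Scr-sh replicate 2, and a second probe set of LIN28A read 8 on every array but SALL4-sh replicate 3, where it read 8.22.

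MYC and MYCN, the growth-promoting factors that bind DNA with MAX, showed no difference beyond their spread. MYC stood at 53.7, 85.0 and 48.3 in Scr-sh and at 74.4, 65.0 and 50.3 in SALL4-sh, and the groups overlapped over most of their range (62.4 ± 19.8 and 63.2 ± 12.1, SD, n = 3 each). The log2 difference of MYC was 0.05 (standard error 0.29), and its sign turned with the array left out, from -0.11 to 0.29. MYCN stood at 15.0, 12.5 and 12.1 in Scr-sh and at 13.0, 13.5 and 12.5 in SALL4-sh. With means of 13.2 ± 1.56 and 13.0 ± 0.512 (SD, n = 3 each), its log2 difference was -0.02 (standard error 0.10), the smallest of the 9 in size.

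**Figure D2:**
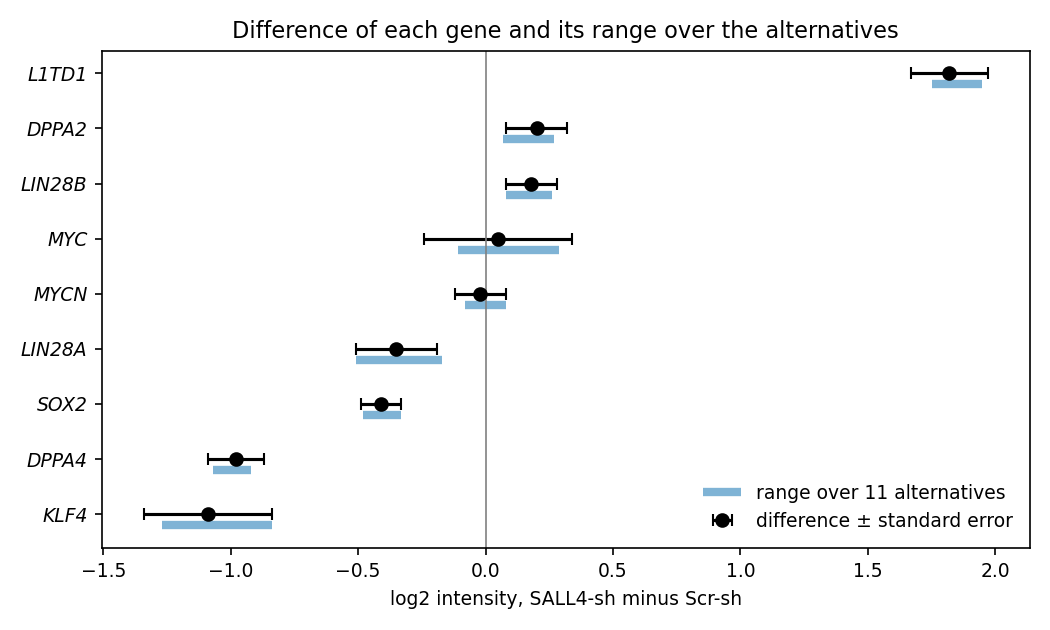
Log2 intensity difference, SALL4-sh minus Scr-sh (horizontal axis), of the 9 measured genes with its standard error from limma (black, n = 3 arrays per group) and the range over 11 alternatives of normalization, filter, probe set choice, replicate block and arrays left out (blue). Only the ranges of MYC (-0.11 to 0.29) and MYCN (-0.08 to 0.08) cross 0. The filter and the replicate block cannot change a difference, and the probe set choice can change that of LIN28A alone.

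Counted over the 9 genes, 3 had every SALL4-sh value below every Scr-sh value, 2 had every one above, and 4 overlapped. Of the 14511 genes that were not at the floor throughout, 12.5% were separated in the lower and 15.0% in the higher direction. In the limma fit over all 18404 genes, DPPA4 was among the genes past the threshold on the lower side (1.33% of all genes) and L1TD1 among those on the higher side (1.18%). When the 3893 genes that read 8 on every array were left out, KLF4 joined DPPA4 on the lower side, where 4.2% of the 14511 genes lay, and L1TD1 stayed the 1 gene on the higher side, where 4.36% lay. All 9 genes passed this filter. The calls varied with the fit. L1TD1 alone passed under eBayes with trend and robust (26 genes higher and 50 lower over the array) and in the plain test (94 and 121). None of the 9 passed with a replicate block (3 and 7). With 1 array left out, L1TD1 and LIN28A passed without Scr-sh replicate 2 (231 genes higher and 173 lower over the array), and no gene of the 9 otherwise. LIN28A read at or near the floor. The contrast that chose the genes is the one counted here. The shares and counts over all genes are therefore printed beside the calls, and nothing is read from any of these calls. The median log2 difference was -0.02 over the 9 genes and 0.01 over the 14511, and the median size was 0.35 and 0.21.

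The other flanking genes were read in the same way, by a rule chosen after the values of the 9 genes had been seen, namely the nearest measured coding gene on either side in the RefSeq order. Of 16 flanking genes that are not on the list, 0 passed the threshold of limma over all genes, 0 with the genes at the floor left out and 0 in the plain test, while 2 had an unadjusted limma p under 0.05. The groups were separate for 3 of the 16. Among the genes not at the floor throughout, 15.0% were separated in the higher and 12.5% in the lower direction. Around SOX2, ATP11B, a phospholipid flippase subunit, had a log2 difference of 0.35 (adjusted p = 0.296 from limma), opposite in sign to SOX2. DNAJC19, a mitochondrial import protein on the other side, read 329, 301 and 611 in Scr-sh and 159, 41.7 and 31.1 in SALL4-sh. DNAJC19 differed by -2.73 on the log2 scale (standard error 0.75; limma adjusted p = 0.174), and its second probe set, at 39.5, 60.0 and 53.5 in Scr-sh, read at most 20.5 in SALL4-sh. The -2.73 is from the brighter probe set, while the second read 16.0, 20.5 and 16.1 in SALL4-sh. RefSeq lists pseudogenes of DNAJC19, and whether either probe set also reads them was not tested. The positions of the probe sets were not known, so the -2.73 may not be a reading of the gene beside SOX2. Next to KLF4, RAD23B, a DNA repair factor, had a log2 difference of -0.22 (adjusted p = 0.674 from limma). Next to LIN28B, POPDC1 had one of -0.71 (adjusted p = 0.407 from limma) and HACE1, a ubiquitin ligase, of 0.00. DDX1, an RNA helicase beside MYCN, had a log2 difference of 0.80 (adjusted p = 0.253 from limma) with all its SALL4-sh values above its Scr-sh values, beside the -0.02 of MYCN itself.

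**Figure D3:**
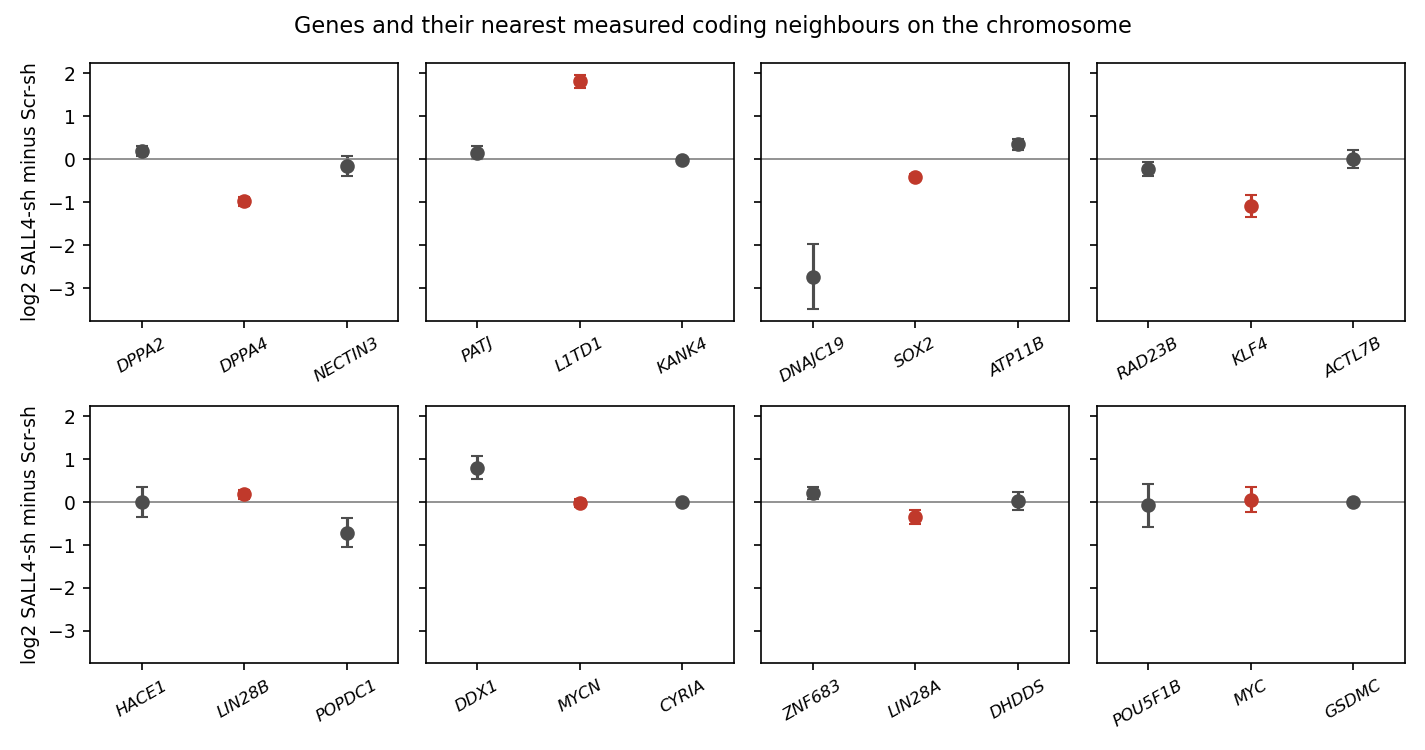
Log2 intensity difference, SALL4-sh minus Scr-sh (vertical axis), of 8 of the listed genes (red, centre of each panel) and of the nearest measured coding gene on either side (dark); whiskers are limma standard errors (n = 3 per group). The neighbours of L1TD1 lie near 0 (0.15 and -0.01) beside its 1.82, and DPPA2 (0.20) and NECTIN3 (-0.16) lie near 0 beside DPPA4 at -0.98. The -0.01 of KANK4 comes from values at or near the floor. GSDMC and CYRIA read 8 on every array, so their difference is set by the floor.

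Other genes of the arrays followed DPPA4 and L1TD1 closely over the 6 arrays. Likeness was the root mean square difference of log2 values, each gene taken relative to its Scr-sh mean. The nearest to DPPA4 were PPP1CC (0.077), ELOA (0.083), MAPK9 (0.095), ASS1 (0.095) and ATXN10 (0.103). MAPK9, the stress kinase JNK2, had a log2 difference of -0.91, and ASS1, the enzyme that makes argininosuccinate, of -0.96. The nearest to L1TD1 were LEMD3 (0.120), NUF2 (0.131), CRLS1 (0.136), SCAMP1 (0.182) and COA7 (0.183). CRLS1, which makes the mitochondrial lipid cardiolipin, stood at 17.4 ± 1.90 in Scr-sh and 57.4 ± 2.52 in SALL4-sh (SD, n = 3 each), above the floor on every array. COA7, an assembly factor of cytochrome oxidase, stood at 10.1 ± 1.84 and 32.7 ± 4.38 (SD, n = 3 each), with 1 Scr-sh value at the floor. These genes were picked for their likeness, which is a description over 6 arrays of 1 contrast.

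Among further genes of pluripotent cells, GAL and PODXL were lower in SALL4-sh. Of 36 such genes listed, 31 were measured, and in limma 2 were lower and 0 higher at an adjusted p under 0.05, where 1.33% of all genes were lower and 1.18% higher. GAL, the neuropeptide galanin, stood at 191, 165 and 167 in Scr-sh and at 34.1, 35.6 and 41.0 in SALL4-sh, a log2 difference of -2.24 (standard error 0.10, adjusted p = 0.00779 from limma). PODXL, the sialomucin podocalyxin that carries stem cell surface epitopes, stood at 149, 251 and 145 and at 42.8, 47.0 and 41.5, a log2 difference of -2.01 (standard error 0.25, adjusted p = 0.0432 from limma). Both had clearly separate groups. Of the 31, 3 were separated in the higher and 6 in the lower direction, beside 15.0% and 12.5% of the genes not at the floor throughout. At an unadjusted limma p under 0.05, 1 of the 31 was higher and 5 lower. TFAP2C, a factor of germ cells and trophoblast, had a log2 difference of 0.89 (adjusted p = 0.0525 from limma), and NR6A1, a nuclear receptor that represses OCT4, had a log2 difference of -1.23 (adjusted p = 0.0664 from limma). With the genes at the floor throughout left out, 4 were lower and 1 higher, TFAP2C being the higher one, beside 4.2% and 4.36% of all genes so tested. With 1 array left out, 1 to 2 of the 31 passed, and 2 did so without Scr-sh replicate 2 alone. A further 7 read 8 on every array, ZFP42, GDF3, DPPA3 and DPPA5 among them, and gave no measurable signal in either group. The median log2 difference of the 31 was 0.00, as was that of all genes.

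The relatives of SOX2 and KLF4 were read from a second list. All 34 other SOX and KLF factors listed were measured, and none passed the threshold of limma in either direction (1 higher and 2 lower at an unadjusted p under 0.05, 0 by the plain test), where 1.18% of all genes were higher and 1.33% lower. KLF5, which acts alongside KLF4 in stem cells, was nearest, at 68.2, 88.7 and 71.5 in Scr-sh and 51.7, 44.9 and 44.7 in SALL4-sh. KLF5 differed by -0.69 on the log2 scale (standard error 0.13; limma adjusted p = 0.0898), and it passed with the genes at the floor left out (adjusted p = 0.0379 from limma). SOX5 had a log2 difference of -0.57 (adjusted p = 0.208 from limma) and KLF3 one of -0.60 (adjusted p = 0.321 from limma). KLF17 had a log2 difference of 0.21 (adjusted p = 0.258 from limma) from values close to the floor. The median over the 34 was -0.01.

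**Figure D4:**
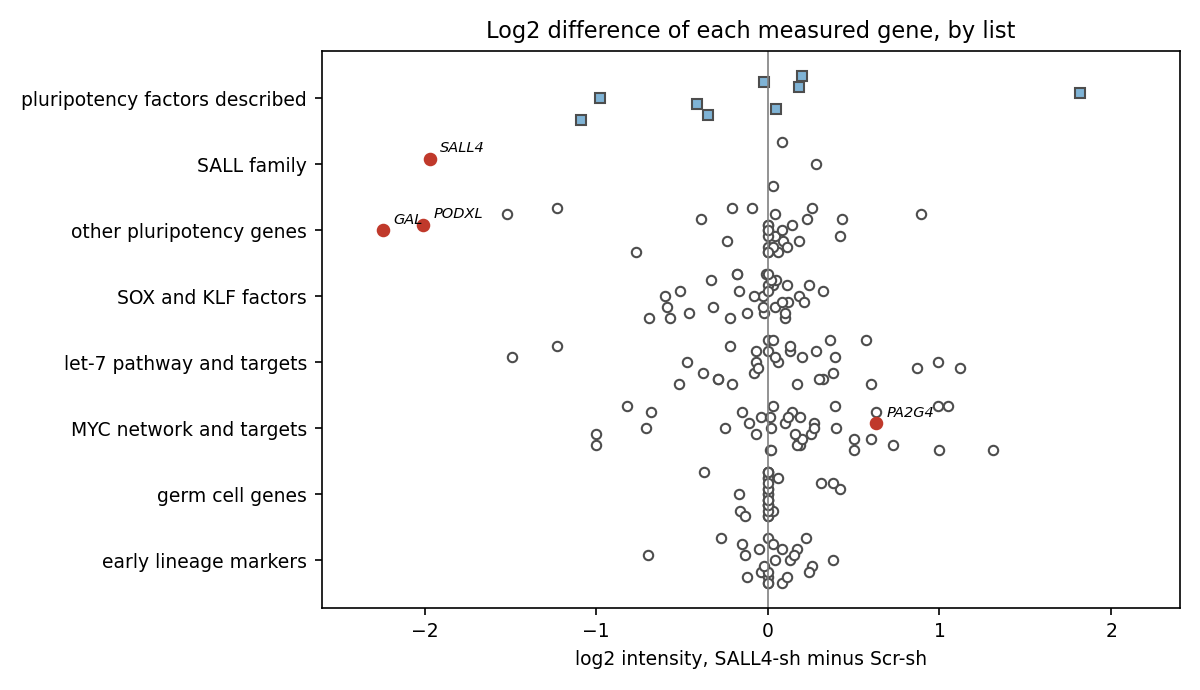
Log2 intensity difference, SALL4-sh minus Scr-sh (horizontal axis), of each measured gene, with 1 row for each list except the cell type markers, which are not drawn, and points spread vertically for legibility. The 9 genes described are blue squares, shown without a call; in the other rows filled red points passed an adjusted p of 0.05 from limma over all genes and are named: SALL4, GAL, PODXL and PA2G4.

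The let-7 microRNAs are shown because the LIN28 proteins act on their precursors. The mature 5p sequences below belong to the 3 hairpin genes that read above the floor on some array, from RefSeq, with the seed (bases 2 to 8, which pairs with targets) in capitals.
let-7d-5p: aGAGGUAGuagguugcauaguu
let-7g-5p: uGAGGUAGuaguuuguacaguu
let-7i-5p: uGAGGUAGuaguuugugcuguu

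All 12 let-7 family genes in the table, with 9 different mature 5p sequences, share this seed. The arrays carried probe sets of their own for 10 hairpin genes and for the host transcript MIRLET7BHG, and 7 of the 10 hairpin genes read 8 on every array. These probe sets read RNA of the hairpin region, not the mature microRNA. MIRLET7D read 11.8, 14.1 and 11.9 in Scr-sh and 11.5, 10.4 and 13.2 in SALL4-sh, and MIRLET7I read 12.9, 13.0 and 13.0 and 12.7, 11.8 and 15.1. MIRLET7G touched the floor in both groups. The groups overlapped for each of the 4 transcripts above the floor, and none passed the threshold of limma or of the plain test, with 0 at an unadjusted limma p under 0.05 (adjusted p of 0.451 for MIRLET7BHG, 0.644 for MIRLET7G, 0.844 for MIRLET7D and 1 for MIRLET7I).

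Of 38 genes of the let-7 pathway and its targets, 33 were measured and none passed the threshold of limma or of the plain test. In limma 1.18% of all genes were higher and 1.33% lower. At an unadjusted limma p under 0.05, 6 of the 33 were higher and 4 lower. The share of all genes at that level was not computed, so unadjusted counts of this and the other lists have no background beside them. The genes nearest the threshold differed in both directions. IGF2BP2, an RNA-binding protein and classic let-7 target, stood at 186, 179 and 153 in Scr-sh and at 77.4, 67.2 and 44.1 in SALL4-sh, a log2 difference of -1.49 (standard error 0.25, adjusted p = 0.0695 from limma). PLAGL2, a zinc finger factor, had a log2 difference of 0.87 (adjusted p = 0.095 from limma), and DROSHA, the nuclease that cuts microRNA precursors from their transcripts, one of 0.38 (adjusted p = 0.109 from limma). The groups of these 3 genes, and of NR6A1, did not overlap. CDC25A and CDK6, further genes of the list, had log2 differences of 1.12 and 0.99 (adjusted p of 0.125 and 0.113 from limma), also with separate groups. Of the 33, 7 were separated in the higher and 4 in the lower direction. Among the 14511 genes not at the floor throughout, 15.0% were separated higher and 12.5% lower. With the genes at the floor throughout left out, 1 of the 33 among them, 3 were higher (CDC25A, CDK6 and PLAGL2) and 2 lower (IGF2BP2 and NR6A1). NR6A1 is also on the list of further genes of pluripotent cells and is counted among the lower genes there too. Of all genes so tested, 4.36% were higher and 4.2% lower. The median was 0.04.

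Of 43 genes of the wider MYC network and of its targets, 39 were measured. In limma 1 was higher and 0 lower, a count near the shares of 1.18% and 1.33% over all genes. Not every gene of this list is a partner or target of MYC. PA2G4, the growth regulator EBP1, stood at 641, 631 and 543 in Scr-sh and at 894, 971 and 938 in SALL4-sh, a log2 difference of 0.63 (standard error 0.08, adjusted p = 0.0448 from limma). ODC1, the first enzyme of polyamine synthesis, had a log2 difference of 1.00 (adjusted p = 0.0526 from limma) and PPAT, of purine synthesis, one of 0.73 (adjusted p = 0.0975 from limma). SHMT2, the mitochondrial serine enzyme, stood at 154 ± 22.3 and 76.9 ± 12.4 (SD, n = 3 each; adjusted p = 0.0843 from limma). These 3 genes had separate groups. Of the 39, 10 were separated in the higher and 6 in the lower direction, beside 15.0% and 12.5% of the genes not at the floor throughout. At an unadjusted limma p under 0.05, 8 of the 39 were higher and 6 lower. With the genes at the floor left out, 4 of the 39 were higher (PA2G4, ODC1, PPAT and NOP16) and 2 lower (SHMT2 and MXI1). Of all genes so tested, 4.36% were higher and 4.2% lower. With 1 array left out, 1 passed without Scr-sh replicate 2 and 0 otherwise. The median log2 difference of the list was 0.17 against 0.00 over all genes, and its summed intensity was 13200 to 13500 in Scr-sh and 14000 to 15100 in SALL4-sh.

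No gene of the germ cell and early lineage lists passed the threshold of limma. Of 28 germ cell genes, 19 read 8 on every array and 0 passed the threshold of limma (0 at an unadjusted p under 0.05, and 0 by the plain test). DDX43 had the smallest adjusted p of these, 0.472 from limma, with a log2 difference of 0.42. Some of the germ cell genes read well above the floor, such as TEX11 (103 ± 0.293 in Scr-sh, SD, n = 3), DDX43 (101 ± 24.7) and SYCP2 (95.2 ± 51.0). Of 27 early lineage markers 25 were measured, and 5 of these read 8 on every array. In limma and in the plain test 0 passed, with 3 higher and 1 lower at an unadjusted limma p under 0.05. Over all genes, 1.18% were higher and 1.33% lower in limma. GATA4, a factor of endoderm and heart, had a log2 difference of 0.26 (adjusted p = 0.14 from limma) and NES, the neural filament nestin, one of 0.38 (adjusted p = 0.156 from limma). PAX6, of eye and brain, stood at 71.7, 58.0 and 48.0 in Scr-sh and at 30.5, 35.5 and 42.9 in SALL4-sh, a log2 difference of -0.70 (adjusted p = 0.199 from limma).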

How the data were processed

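RNA of 6 H661 samples (3 Scr-sh and 3 SALL4-sh) was measured on Affymetrix arrays. The authors deposited 1 table of normalized intensity for 32321 probe sets, on a linear scale with a floor of 8, at which 38.8% to 40.4% of the values of an array stood. RMA is the tool in the submitters' processing notes, with no version there. The labels give 5 µg of total RNA per sample; serum and RNA kit differ between the labels and the methods.

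The log2 of the intensity was taken. Of the probe sets, 19158 had 1 symbol and were used, 1388 had several and 11775 none. The probe set with the highest mean stood for each of 18404 genes. The group comparison used limma 3.58.1 under R 4.3.3 (lmFit, eBayes without trend, Benjamini-Hochberg over all genes, threshold 0.05), after the script was tested on simulated data. The number of arrays limits the precision. Log2 values correlated at 0.969 to 0.98 within groups and 0.955 to 0.965 between them, and no arrays were identical.

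The members and gene lists were chosen with earlier results of these data known. Genes named outside the members were the SALL genes, up to 4 per list with the smallest adjusted p, and the 5 nearest in pattern to DPPA4 and to L1TD1. Chosen after their values were seen were CDC25A, CDK6, NOP16, MXI1, TEX11, SYCP2, the let-7 transcripts, the flanking genes and the markers. Alternatives were cyclic loess, quantile normalization, a filter at the 25th percentile (which equals the floor), a replicate block, eBayes with trend and robust, the mean of probe sets, one-way ANOVA (the test that the study's account of these arrays names, called the plain test) and each array left out. Sequences came from RefSeq on GRCh38.p14.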

Additional observations from a re-analysis of the deposited data

How the results depend on the processing

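The log2 differences of the 9 genes moved by less than the spread between replicates under all 11 alternatives run on them, and the sign turned for MYC and MYCN alone. The filter and the replicate block cannot change these differences, and the mean of probe sets can change that of LIN28A alone. A lack of change there shows nothing about stability. Correlations of deviations between samples of the same replicate number were 0.144, 0.113 and -0.00069, against -0.152 to 0.0339 for different numbers. These values do not settle whether the replicate numbers pair the samples. With the replicate block, 3 genes were higher and 7 lower over the array, 0 other pluripotency and 0 MYC genes passed, and SALL4 kept its -1.97 with an adjusted p of 0.115 from limma.

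Over all genes, 218 higher and 244 lower became 633 and 610 with the genes at the floor left out, 26 and 50 under eBayes with trend and robust, 94 and 121 under one-way ANOVA over the genes not at the floor throughout, and 23 to 231 and 29 to 173 with 1 array left out. SALL4 ran from -2.07 to -1.87 with 1 array left out and passed without Scr-sh replicate 2 alone (adjusted p of 0.0309 to 0.0741 from limma). Of the other pluripotency genes (2 passing), 5 passed with the filter, 1 under eBayes with trend and robust, 1 under ANOVA and 1 to 2 with 1 array left out. Of the let-7 genes (0), 1 passed after quantile normalization, 5 with the filter and 0 to 2 with 1 array left out. Of the MYC genes (1), 2 passed after cyclic loess and 2 after quantile normalization, 6 with the filter, 0 under eBayes with trend and robust, 0 under ANOVA and 0 to 1 with 1 array left out. Of the SOX and KLF factors (0), 1 passed with the filter. The cause of these moves was not tested. The floor limits L1TD1, KLF4 and LIN28A.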
